A study of Homo sapiens with 12 samples.

Results

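The nuclear-encoded respiratory chain was read from 87 of the 34595 gene symbols in the deposited table of 12 microarrays. The rule that takes them uses gene symbols only, though the chain was picked for description with earlier results of these data known. They were the NDUFA, NDUFB, NDUFC, NDUFS and NDUFV genes (complex I, 38 genes), SDHA to SDHD (complex II, 4 genes), the UQCR genes (complex III, 8 genes), the COX4 to COX8 genes (complex IV, 19 genes) and the ATP5 genes (complex V, 18 genes). To be tested, a gene had to exceed 6.82, the median log2 value of the table, on 3 or more arrays. This left 78 of the 87 genes (36, 4, 8, 12 and 18 in complexes I to V) and 19670 of all 34595. The 9 genes that were not tested were NDUFB4, NDUFS6 and the pseudogene COX6BP1, together with COX4I2, COX6A2, COX6B2, COX7A1, COX7B2 and COX8C, which are isoforms known from particular tissues. Their values lay between 6.48 and 6.89 on every array. The symbols also took in ATP5S, ATP5SL and COX4NB, which encode no subunit, and the copies or pseudogenes ATP5EP2 and UQCRHL, whose signal cannot be told apart from that of ATP5E and UQCRH where a probe matches both. NDUFA4, counted here with complex I by its symbol, is known as a subunit of complex IV, and NDUFA4L2 is its paralog. Neither was called in any of the 5 comparisons, and without them complex I had 34 tested genes, the same 11 falls and the same median of −0.16 in the untreated comparison described first. The 13 mitochondrially encoded subunits were not analysed here.

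The study asked how estradiol and MTDH affect expression in ECC1, a human endometrial cancer cell line. The 4 groups held 3 arrays each: parental ECC1 and an MTDH knockout of it, both either untreated or given 10 nM estradiol for 24 h. All of them had first spent 24 h in medium whose 5% serum was stripped with charcoal, which lowers its steroid content. The knockout was 1 line, so a difference between lines holds the loss of MTDH (metadherin) together with whatever else sets that line apart. Nothing in the labels ties the replicates to separate cultures. P-values therefore reflect only how these arrays vary within the groups as labelled, which may be technical variation. The spread was estimated over all 4 groups together.

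In the inner mitochondrial membrane, complex I takes electrons from NADH and complex II takes them from succinate. Both pass them to ubiquinone, complex III hands them on to cytochrome c, and complex IV gives them to oxygen. The proton gradient built on the way drives complex V, the ATP synthase. Most subunits are encoded in the nucleus, and their genes are known targets of the transcription factors NRF1 and GABP and of the coactivator PGC-1alpha.

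MTDH was checked first. Its log2 level was 11.43, 11.18 and 10.78 on the 3 untreated parental arrays and 8.57, 8.53 and 8.59 on the 3 untreated knockout arrays (change −2.57 ± 0.58, SE, n = 3 per group, limma adjusted p = 0.0162). With estradiol it was 10.83, 10.96 and 8.97 on the arrays labelled parental and 10.94, 8.49 and 8.49 on those labelled knockout. The third array labelled parental with estradiol and the first labelled knockout with estradiol therefore go against their labels in MTDH level. The labels were kept, and counts of calls and the main values that use these 2 arrays are also given for the 10 arrays without them. Within the treated groups, the spread may hold a difference between lines. Because the spread is shared by all groups, these 2 arrays also enter the p-values between the untreated lines. There 10.9% of all tested genes had a limma adjusted p under 0.05 with them and 19.5% without them. The labelled epithelial origin was checked by markers: 8 of 8 epithelial markers lay above 6.82 on all arrays, with mean levels from 6.92 to 12.7. Of the markers of other cell types, 3 of 8 fibroblast, 4 of 7 leukocyte and 1 of 4 endothelial markers passed the filter.

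**Figure D1:**
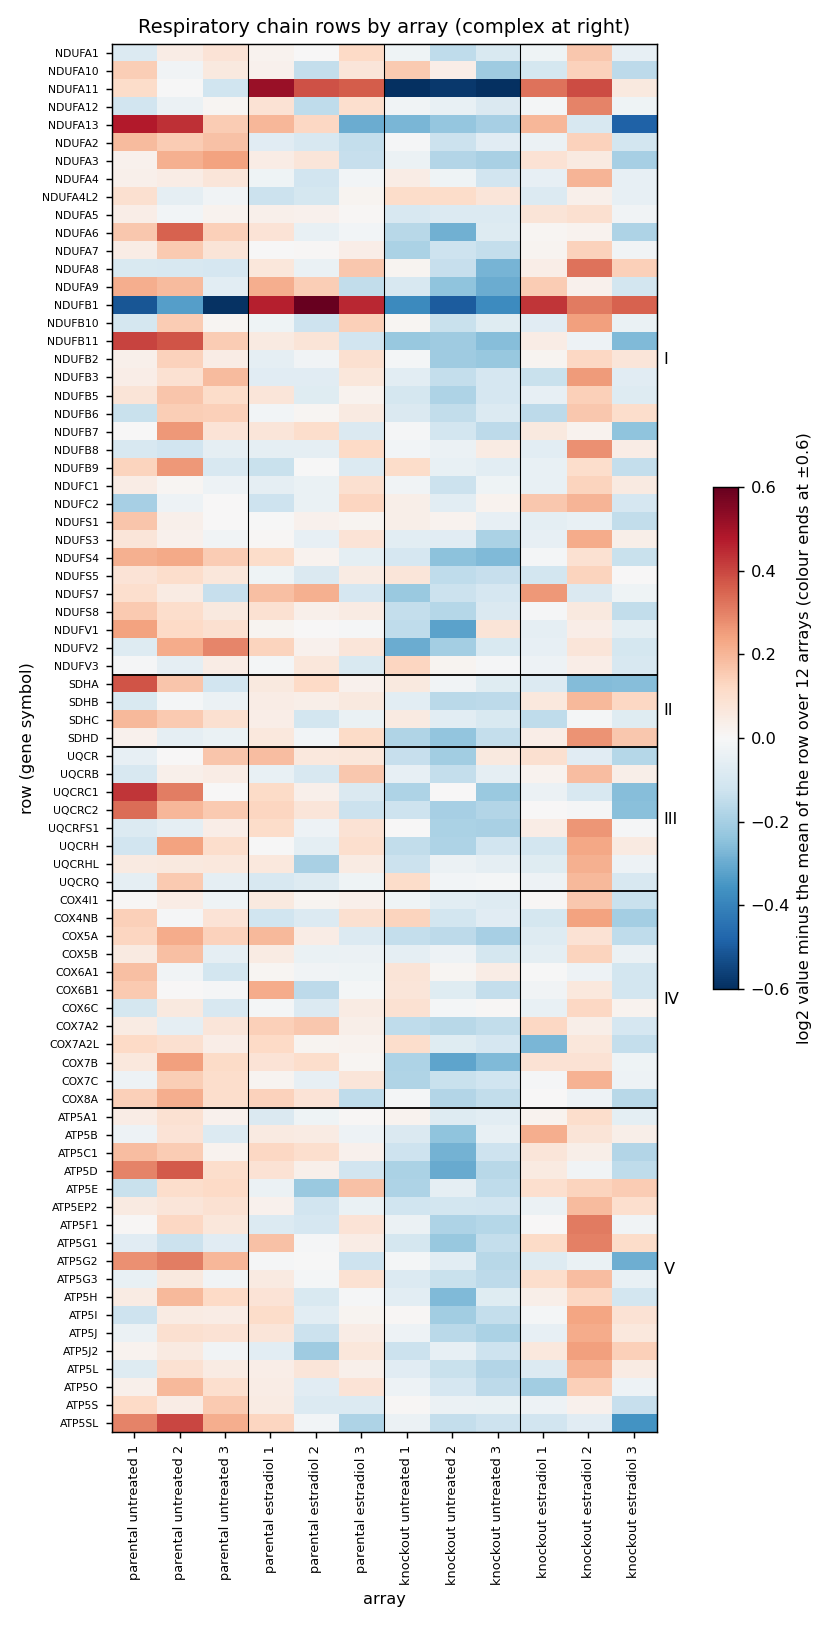
Each line is 1 tested respiratory chain gene, grouped by complex (labels at right), and each column is 1 of the 12 arrays. Colour gives the log2 value minus the mean of that gene over the 12 arrays. NDUFB1 and NDUFA11 stand out in the estradiol columns, and most genes are blue in the 3 untreated knockout columns.

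Without estradiol, 19 of the 78 tested respiratory chain genes fell in the knockout line and 0 rose. Of all 19670 genes tested, 10.9% were called in either direction and 8.63% fell (called means an adjusted p under 0.05 in limma, Benjamini-Hochberg over all genes tested). Complex I had 11 falls among 36 genes, complex III 2 among 8, complex IV 2 among 12 and complex V 4 among 18, while none of the 4 complex II genes was called. The median change was −0.16 over the 78 genes and −0.03 over all tested genes. Respiratory chain genes are bright, however: 56 of the 78 had a mean log2 level above 10. The 2357 genes of the whole table above that level had a median change of −0.15, against −0.18 for those 56. The share of falls among these bright genes is not given here, so an excess of falls over genes of like level is not shown. Medians of complexes I to V were −0.16, −0.16, −0.13, −0.12 and −0.17.

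Quantile normalization gives every array the same distribution of values, so a shift shared by genes of like level is largely removed by the method. After it the median of the 78 genes was −0.03, that of all tested genes was −0.00177 and that of the 2357 bright genes was 0.01. Under it 6 of the 78 fell (NDUFA11, NDUFB11, NDUFA6, NDUFS4, COX7B and ATP5D) and 3 rose (NDUFB8 by 0.28, COX6C by 0.25 and COX6A1 by 0.22 on the log2 scale), where 8.04% of all tested genes were called. The other 13 calls were lost under it. Whether the shared decline of bright genes lies in the cells or in the arrays was not tested.

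**Figure D2:**
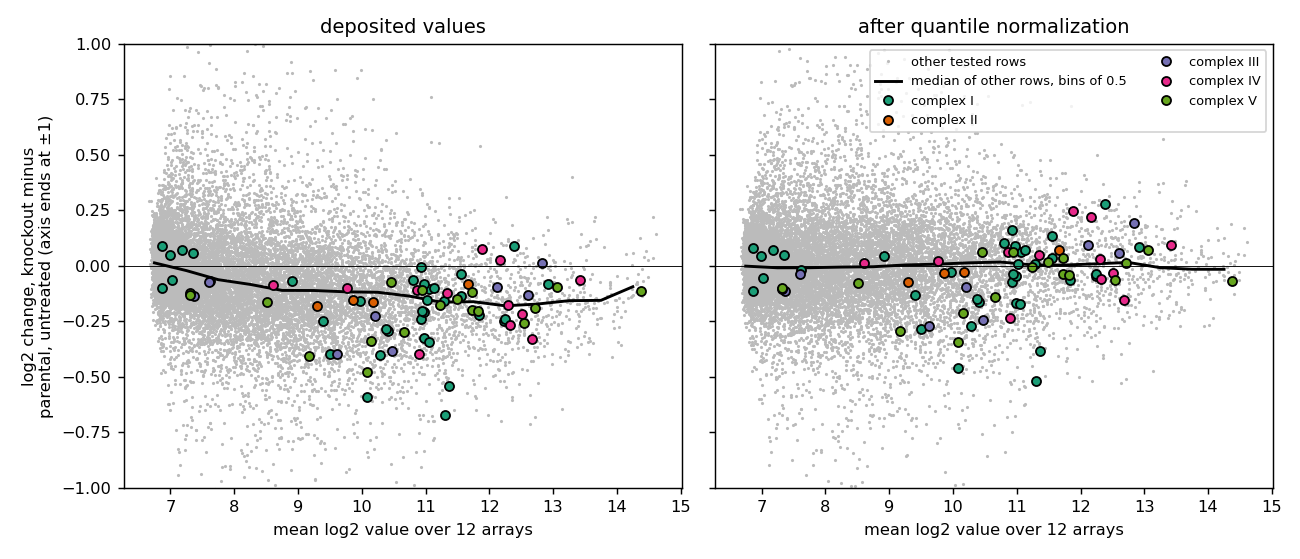
The vertical axis gives the log2 change of knockout minus parental cells without estradiol and the horizontal axis the mean log2 level over 12 arrays, for deposited values (left) and after quantile normalization (right). Coloured points are the respiratory chain genes by complex, grey points the other tested genes, and the black line their median in level bins of 0.5. In the deposited values the black line falls below 0 at high levels, and most coloured points lie around it; after quantile normalization it runs close to 0.

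NDUFA11, an accessory subunit in the membrane arm of complex I, had the largest decline. Its log2 level was 11.41, 11.29 and 11.18 in untreated parental cells and 10.63, 10.72 and 10.53 in untreated knockout cells. All 3 knockout arrays lay below all 3 parental arrays (−0.67 ± 0.09, SE, n = 3 per group, limma adjusted p = 0.00356), a level 1.59-fold lower. NDUFB11, another accessory subunit of that arm, read 11.77, 11.75 and 11.52 in parental and 11.14, 11.15 and 11.11 in knockout cells. Its knockout values were close together and apart from the parental ones (−0.54 ± 0.09, adjusted p = 0.00585). NDUFA13, also known as GRIM-19, read 10.56, 10.52 and 10.23 against 9.81, 9.85 and 9.88. The groups did not overlap (−0.59 ± 0.16, adjusted p = 0.0308), but the call was lost on leaving out 5 of the 6 untreated arrays singly, all except the third parental array.

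NDUFS4, an accessory subunit mutated in Leigh syndrome, read 10.49, 10.50 and 10.43 in parental and 10.18, 10.03 and 10.02 in knockout cells. The lowest parental value lay above the highest knockout value (−0.40 ± 0.07, limma adjusted p = 0.00754). NDUFA6, an accessory subunit of the LYR family, read 9.66, 9.86 and 9.64 against 9.33, 9.21 and 9.42, again without overlap (−0.40 ± 0.08, adjusted p = 0.0113). This call was lost without the second untreated array of either line. Among the catalytic core subunits of complex I, 3 fell, all by less than NDUFS4: NDUFV2 by 0.34, NDUFV1 by 0.29 and NDUFS8 by 0.24. The NDUFV1 call was lost under 14 of 23 alternative analyses, among them no filter, a trended and robust prior and the replicate block. NDUFS1, NDUFS3 and NDUFS7 had changes from −0.16 to −0.06 and were not called. The accessory subunits NDUFA7, NDUFB5 and NDUFA2 fell by 0.25, 0.25 and 0.24.

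Complex II, succinate dehydrogenase, showed no call. SDHA, the flavoprotein that oxidizes succinate, read 10.23, 10.02 and 9.74 in parental and 9.91, 9.83 and 9.78 in knockout cells, with overlapping groups (−0.16 ± 0.10, limma adjusted p = 0.367). SDHB, the iron-sulfur subunit, read 11.57, 11.65 and 11.63 against 11.60, 11.50 and 11.50, which also overlapped (−0.08 ± 0.06, adjusted p = 0.408). The membrane anchors SDHC (−0.18 ± 0.07, adjusted p = 0.0889) and SDHD (−0.16 ± 0.07, adjusted p = 0.136) were lower on every knockout array than on every parental array without reaching the threshold.

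In complex III the genes of the core proteins fell. UQCRC2 read 9.95, 9.82 and 9.77 in parental and 9.49, 9.42 and 9.44 in knockout cells (−0.40 ± 0.08, limma adjusted p = 0.0133), and UQCRC1 fell by 0.38 (adjusted p = 0.0336). Neither gene overlapped between the lines, UQCRC1 only narrowly (lowest parental value 10.476, highest knockout value 10.473). The Rieske iron-sulfur protein gene UQCRFS1 changed by −0.10 ± 0.08 (adjusted p = 0.52) and was not called.

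In complex IV, COX7B, a small structural subunit, read 10.96, 11.14 and 11.01 in parental and 10.71, 10.58 and 10.63 in knockout cells. The parental values were all higher (−0.40 ± 0.07, limma adjusted p = 0.00585). COX5A fell by 0.33 (adjusted p = 0.0195). The widely expressed isoforms COX4I1, COX6A1, COX6B1 and COX7A2, and the related COX7A2L, known from supercomplex assembly, had changes between −0.18 and 0.03 and were not called, and COX8A missed the threshold at −0.27 ± 0.08 (adjusted p = 0.0527).

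Complex V showed its largest decline in the catalytic F1 part. ATP5D, the delta subunit of the central stalk, read 10.38, 10.45 and 10.19 in parental and 9.89, 9.78 and 9.91 in knockout cells. All knockout arrays were lower (−0.48 ± 0.08, limma adjusted p = 0.00656). The gamma subunit gene ATP5C1 fell by 0.30, while the alpha and beta subunit genes ATP5A1 (−0.09 ± 0.06) and ATP5B (−0.11 ± 0.07) were not called. Of the 3 genes for the ring-forming subunit c, whose mature protein is the same, only ATP5G2 was called. It read 10.43, 10.46 and 10.35 against 10.14, 10.09 and 9.98 (−0.34 ± 0.08, adjusted p = 0.015). ATP5G1 (−0.07 ± 0.07) and ATP5G3 (−0.12 ± 0.07) were not called, and a difference between the 3 genes was not tested. ATP5SL, no subunit but a factor for complex I assembly now named DMAC2, fell by 0.41 (adjusted p = 0.0159).

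The calls for NDUFA11, NDUFB11, NDUFS4, COX7B and ATP5D held under all 23 alternative analyses at the same threshold. Some of these only leave out estradiol arrays. They keep the changes between the untreated lines as they are and alter only the estimate of spread. The other 14 calls were each lost under 2 (NDUFA6) to 14 (NDUFV1) of them. The number of falls changed when single arrays were left out. It was 5 without the second untreated parental array or the second untreated knockout array, and 7 without the third knockout array. It was 9 without the first parental and 11 without the first knockout array. Shares of all tested genes in these fits are not given here, so these drops are not shown to be particular to the chain. On the 10 arrays, 26 of the 78 genes fell, among them all 19, and 19.5% of all tested genes were called. The untreated arrays and the changes between them are the same there, and only the spread differs. The epithelial markers KRT19 (by 0.86), EPCAM (by 0.58) and CLDN4 (by 0.38) also fell in the untreated knockout line, 3 of 8 on the list with a list median of −0.33, and COL1A1, 1 of 3 tested fibroblast markers, rose by 0.52. Their part in the result was not tested.

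MTDH lies on chromosome 8, as do 3 of the 87 respiratory chain genes. COX6C (0.08 ± 0.07, limma adjusted p = 0.534), UQCRB (−0.07 ± 0.08, adjusted p = 0.609) and NDUFB9 (−0.10 ± 0.09, adjusted p = 0.564) were not called in the untreated knockout line with the deposited values. The rise of COX6C under quantile normalization is given above. Of the further pathway genes described below, the complex III subunit gene CYC1 (−0.30, adjusted p = 0.0482) and TMEM70 (−0.26, adjusted p = 0.0294), an assembly factor of complex V, lie on the same chromosome and fell. Under quantile normalization neither was called. MYC, a regulator on the lists described below, also lies on chromosome 8 and did not fall. Between the untreated lines it was not called on all arrays, with the deposited values or under quantile normalization. On the 10 arrays it was called as a rise in the untreated knockout line and, with estradiol in both lines, as higher in the knockout line.

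With estradiol in both lines, 0 of the 78 genes differed between knockout and parental arrays as labelled, where 0.00% of all tested genes were called in limma, and 2 of the 78 had an unadjusted p under 0.05. The median change was 0.02 over the 78 and −0.01 over all tested genes. On the 10 arrays, where 9.79% of all tested genes were called, 2 of the 78 were called. ATP5J2, the f subunit of the membrane part of complex V, was higher in the knockout line (0.33 ± 0.08, adjusted p = 0.0128) and NDUFA13 was lower (−0.45 ± 0.12, adjusted p = 0.0203). NDUFA13 read 10.28, 10.21 and 9.79 on the arrays labelled parental with estradiol and 10.28, 9.99 and 9.60 on those labelled knockout. Its lowest value under the parental label and its highest under the knockout label were on the 2 arrays whose MTDH level goes against the label.

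**Figure D3:**
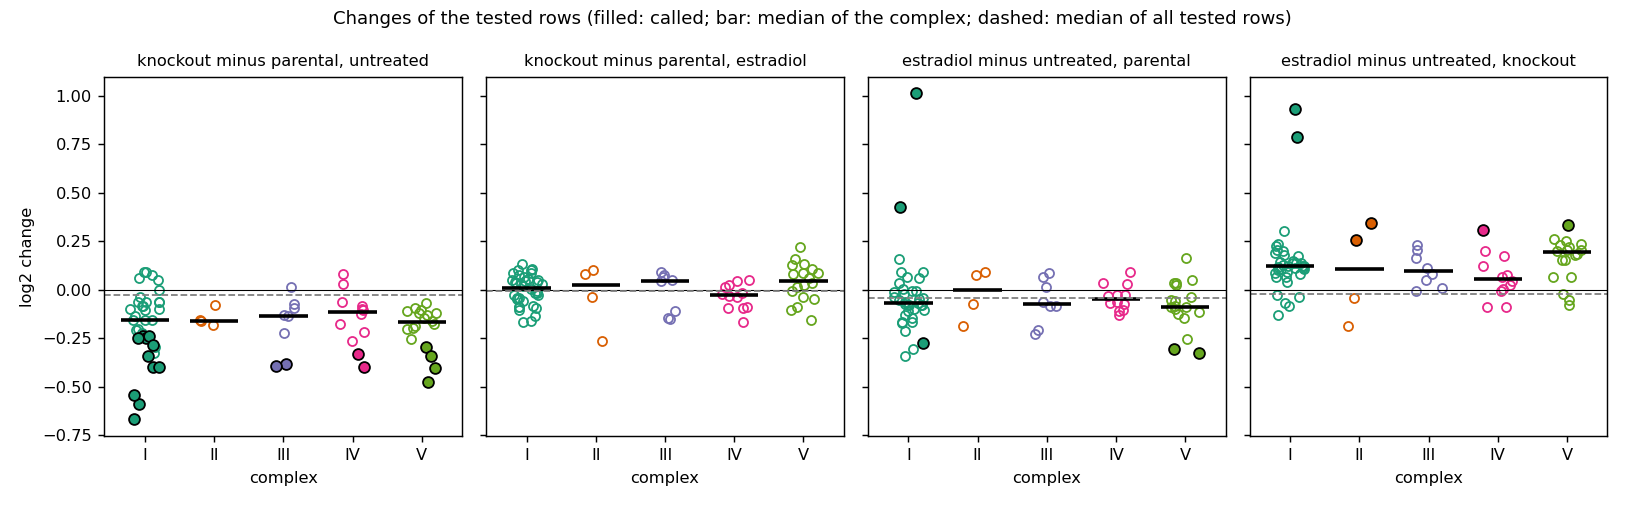
Each point is the log2 change of 1 tested gene in the comparison named above the panel, by complex. Filled points were called, bars are medians of a complex and the dashed line is the median of all tested genes. Without estradiol the filled points, 19 in all, lie below 0; in the knockout line with estradiol the 6 filled points lie above 0.

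Estradiol raised 2 of the 78 genes in parental cells, both of complex I, and lowered 3. Of all tested genes, 7.00% were called, 1.12% as rises and 5.87% as falls. NDUFB1, a small accessory subunit in the membrane arm of complex I, read 6.83, 7.02 and 6.76 in untreated and 7.81, 8.03 and 7.80 in treated parental cells. The treated arrays were all higher, by 1.01 ± 0.08 (SE, n = 3 per group, limma adjusted p = 1.03e-05). The untreated values lie at the filter of 6.82 and near the range of the untested genes, and no detection values were used here. The size of this rise is therefore uncertain and may be a lower limit, which was not tested. NDUFA11 read 11.82, 11.68 and 11.66 with estradiol, above its 3 untreated values (0.42 ± 0.09, adjusted p = 0.0146), and this call was lost without the second untreated or the first treated array. The changes were 1.05 ± 0.09 for NDUFB1 and 0.45 ± 0.10 for NDUFA11 on the 10 arrays.

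The 3 falls in parental cells were smaller. ATP5G2 read 10.14, 10.15 and 10.02 with estradiol, below all 3 untreated values (−0.31 ± 0.08, limma adjusted p = 0.0275). ATP5SL (−0.33 ± 0.09, adjusted p = 0.0472) and the complex I accessory subunit gene NDUFA2 (−0.28 ± 0.07, adjusted p = 0.0258) fell as well, though the ATP5SL call was lost under 14 of the 23 alternatives, the 10 arrays among them. Under quantile normalization none of the 3 falls was called, and 4 genes rose: NDUFB1 and NDUFA11 together with ATP5G1 and NDUFA8, which were not called before it (4.50% of all tested genes were called). The median change of the 78 was −0.07 and that of all tested genes −0.05, and after quantile normalization these were 0.04 and 0.00051, so the direction for the chain as a whole turned with the scaling. On the 10 arrays, NDUFB1 and NDUFA11 rose and ATP5G2 and NDUFA2 fell, where 10.7% of all tested genes were called. In the same comparison 3 of 8 epithelial markers fell, KRT19 by 0.74 (0.53 on the 10 arrays), KRT8 by 0.61 and KRT7 by 0.32, with a list median of −0.29. VWF, the 1 tested endothelial marker, fell by 0.48, and none of the tested fibroblast and leukocyte markers was called. Their part in the result was not tested.

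In the knockout line, estradiol raised 6 of the 78 genes and lowered 0. Of all tested genes, 3.88% were called and 1.18% rose. The median change was 0.12 over the 78 genes, −0.02 over all tested genes and 0.03 over the 2357 bright genes. Under quantile normalization, 9 of the 78 rose with a median of 0.11 against 0.00131 for all tested genes, of which 5.44% were called. All 6 calls were kept there, and ATP5G3, NDUFA7 and UQCRB were added. Complex V had the highest median at 0.19, followed by complex I at 0.12, complex II at 0.11, complex III at 0.10 and complex IV at 0.06. A difference between complexes was not tested. Among the cell type markers, 2 of 3 tested fibroblast markers fell in this comparison, COL1A1 by 0.66 and COL3A1 by 0.38, with a list median of −0.38. CDH1, 1 of 8 epithelial markers, fell by 0.44 and VWF by 0.31, and their part in the result was not tested.

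NDUFA11 rose most in the knockout line. It read 11.62, 11.69 and 11.36 with estradiol, far above its untreated knockout values (0.93 ± 0.09, limma adjusted p = 7.58e-05), a level 1.91-fold higher. NDUFB1 read 6.97, 6.85 and 6.97 without and 7.78, 7.66 and 7.70 with estradiol (0.78 ± 0.08, adjusted p = 0.000115), and the groups lay well apart. Its untreated values were again near the filter, so this size too is uncertain and may be a lower limit. These rises of both genes in the knockout line, and that of NDUFB1 in parental cells, were called under all 23 alternatives at the same threshold.

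SDHD, a membrane anchor of complex II, read 9.99, 9.94 and 10.03 without and 10.22, 10.45 and 10.34 with estradiol in the knockout line (0.34 ± 0.07, limma adjusted p = 0.0122). SDHB read 11.60, 11.50 and 11.50 without and 11.73, 11.86 and 11.79 with estradiol (0.26 ± 0.06, adjusted p = 0.0242). Neither gene overlapped between the groups. SDHA (−0.19 ± 0.10) and SDHC (−0.04 ± 0.07) were not called, so 2 of the 4 genes of this complex rose. In parental cells SDHB (0.09 ± 0.06) and SDHD (0.08 ± 0.07) were not called.

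ATP5G1, one of the subunit c genes, read 10.35, 10.23 and 10.31 without and 10.57, 10.76 and 10.57 with estradiol in the knockout line, again without overlap (0.34 ± 0.07, limma adjusted p = 0.0184). In the same comparison ATP5G2 changed by −0.06 ± 0.08 and ATP5G3 by 0.21 ± 0.07, and neither was called. COX7B read 10.98, 10.98 and 10.87 with estradiol, above its 3 untreated knockout values (0.30 ± 0.07, adjusted p = 0.0206). For COX7B and NDUFA11, the fall between untreated lines and the rise with estradiol share the 3 untreated knockout arrays and are no independent observations.

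Leaving out single arrays moved the count of rises in the knockout line between 2, without the second untreated knockout array, and 7. It was 3 without the third untreated knockout array and 4 without the second treated one. On the 10 arrays, 9 of the 78 rose, the same 6 with ATP5EP2, ATP5J2 and NDUFA8, and 6.80% of all tested genes were called. The rises of the 6 then lay between 0.29 for COX7B and SDHB and 0.90 for NDUFA11, with 0.75 for NDUFB1. In parental cells the count of calls was 1 without the second untreated array and 2 without the first untreated or any 1 treated array. It was 8 without the third untreated array. Shares of all tested genes without single arrays are not given here, so these shifts are not shown to be particular to the chain.

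**Figure D4:**
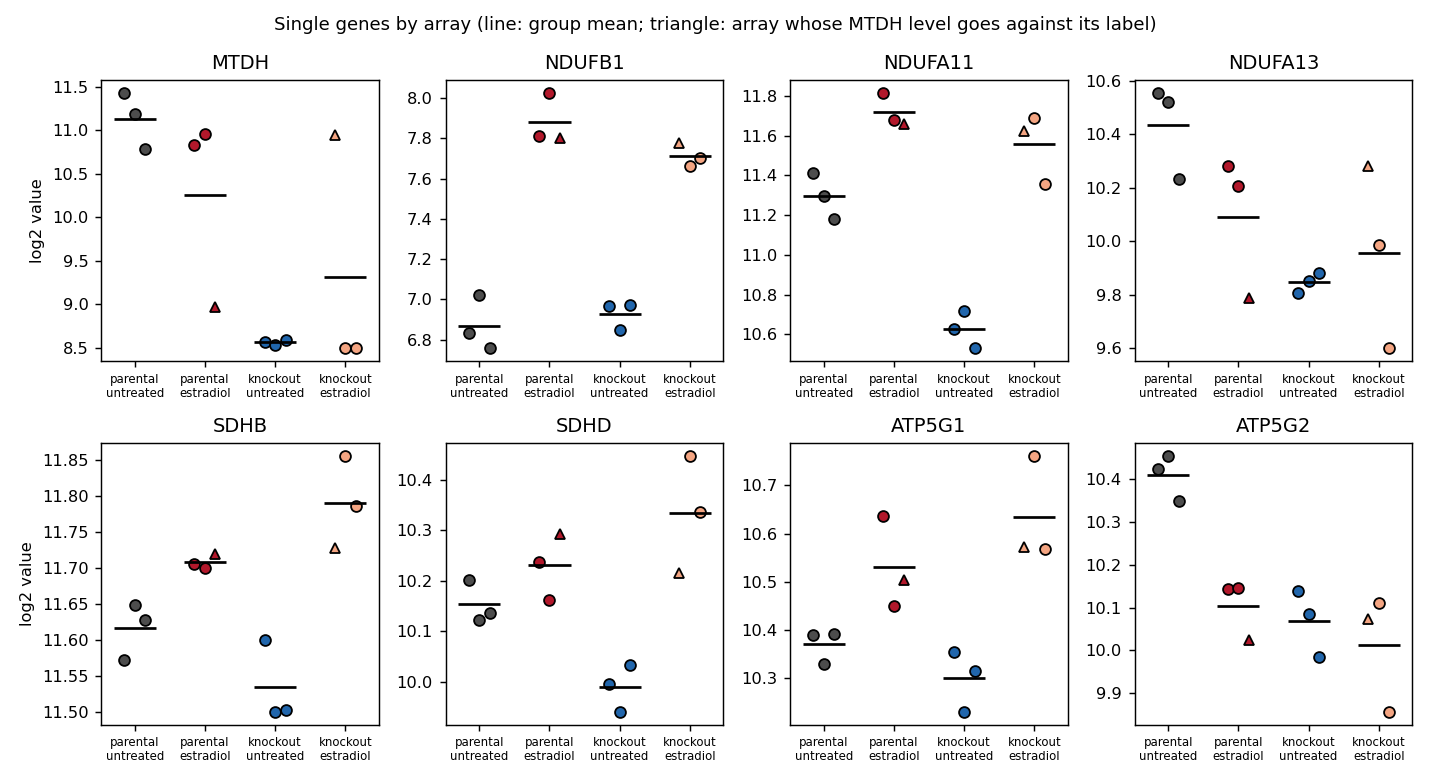
Log2 levels of MTDH and 7 respiratory chain genes on each array, with a line at the mean of each group of 3 arrays. Triangles mark the 2 arrays whose MTDH level goes against their label. NDUFB1 lies near 7 without and near 8 with estradiol in both lines, and NDUFA11 is lowest on the 3 untreated knockout arrays.

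The difference between the lines in their estradiol response was tested as an interaction. It called 0 of the 78 genes, where 0.00508% of all tested genes were called, and 21 of the 78 had an unadjusted p under 0.05. COX7B (0.38 ± 0.09, limma adjusted p = 0.157) and NDUFA11 (0.51 ± 0.13, adjusted p = 0.177) had the smallest p. On the 10 arrays the interaction also called 0 of the 78, where 0.752% of all tested genes were called. The median was 0.18 over the 78, 0.02 over all tested genes and 0.13 over the bright genes, and it was 0.06 for the 78 after quantile normalization. For NDUFB1 the interaction was −0.23 ± 0.12 (adjusted p = 0.516).

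Averaged over its tested genes, every complex had its lowest group mean in untreated knockout cells. Complex I was 10.29 ± 0.03 (SD, n = 3) in untreated and 10.26 ± 0.01 in treated parental cells, 10.11 ± 0.04 in untreated and 10.26 ± 0.09 in treated knockout cells. Complex V was 10.93 ± 0.04, 10.85 ± 0.05, 10.73 ± 0.04 and 10.88 ± 0.09 in the same order. The bright genes of the whole table had group means of 11.31, 11.20, 11.15 and 11.17 in that order, so their lowest mean was also in untreated knockout cells. Relative to the mean of all tested genes on the same array, the 78 genes stood at 2.57 ± 0.03, 2.58 ± 0.04, 2.44 ± 0.02 and 2.60 ± 0.03. The bright genes stood at 3.22, 3.17, 3.11 and 3.16 on that scale, also lowest in untreated knockout cells. With the 10 arrays, 2 in each treated group, the 78 genes stood at 2.60 ± 0.03 and 2.60 ± 0.04 in the treated groups. Each complex again had its lowest mean in untreated knockout cells. The second treated knockout array was the highest of its group in every complex, and without it the median change with estradiol in that line was 0.07.

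**Figure D5:**
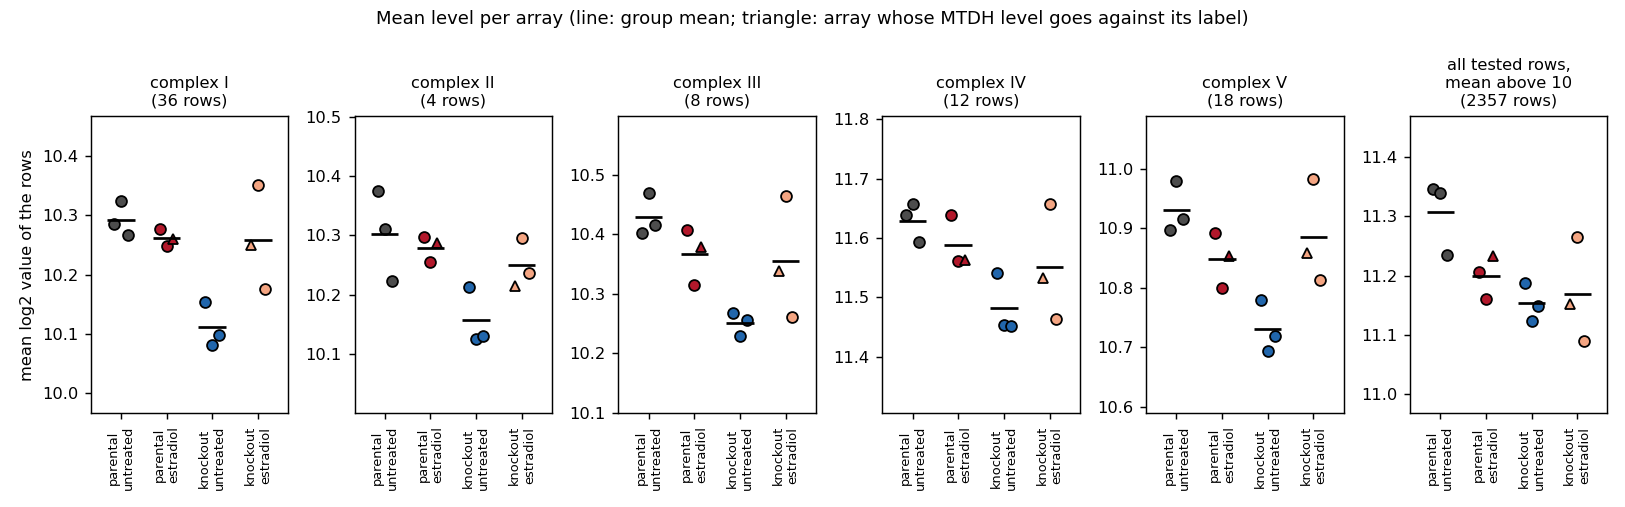
Mean log2 value per array of the tested genes of each complex, and of all 2357 tested genes with a mean level above 10 (right). Points are arrays, lines are means of 3 arrays, and triangles mark the 2 arrays whose MTDH level goes against their label. All panels span 0.5 log2 units, and untreated knockout cells have the lowest mean in each.

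The regions around the starts of 4 genes that rose with estradiol are shown because these genes carry the estradiol results: NDUFB1 and NDUFA11 rose in both lines, SDHD and ATP5G1 in the knockout line. The sequences are from RefSeq (GRCh38.p14), run 5′ to 3′ in the direction of the gene and hold 250 bases before the start and 50 after it. Capitals mark matches, on either strand, to 5 short motifs. These were TGCGCA (the core of the NRF1 site), CCGGAAG (an ETS site of the kind GABP binds), the box CCAAT known to bind NF-Y, the Sp1 site GGGCGG, and the estrogen receptor half-site GGTCA. NDUFB1 lies at chr14:92121657-92121956 on the minus strand, NDUFA11 at chr19:5903741-5904040 on the minus strand, SDHD at chr11:112086623-112086922 on the plus strand and ATP5G1 (now ATP5MC1) at chr17:48892537-48892836 on the plus strand.
NDUFB1: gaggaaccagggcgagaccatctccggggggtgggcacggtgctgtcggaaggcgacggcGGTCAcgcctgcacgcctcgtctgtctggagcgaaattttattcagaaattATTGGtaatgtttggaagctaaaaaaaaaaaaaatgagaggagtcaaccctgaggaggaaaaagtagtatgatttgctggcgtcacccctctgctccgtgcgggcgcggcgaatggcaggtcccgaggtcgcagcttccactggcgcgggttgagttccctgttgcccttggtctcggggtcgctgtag
NDUFA11: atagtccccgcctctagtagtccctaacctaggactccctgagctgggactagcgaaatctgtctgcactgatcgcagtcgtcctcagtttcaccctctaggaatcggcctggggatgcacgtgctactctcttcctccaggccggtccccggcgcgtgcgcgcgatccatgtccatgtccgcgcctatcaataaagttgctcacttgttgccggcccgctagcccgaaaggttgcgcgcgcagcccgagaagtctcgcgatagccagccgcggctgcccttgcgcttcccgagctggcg
SDHD: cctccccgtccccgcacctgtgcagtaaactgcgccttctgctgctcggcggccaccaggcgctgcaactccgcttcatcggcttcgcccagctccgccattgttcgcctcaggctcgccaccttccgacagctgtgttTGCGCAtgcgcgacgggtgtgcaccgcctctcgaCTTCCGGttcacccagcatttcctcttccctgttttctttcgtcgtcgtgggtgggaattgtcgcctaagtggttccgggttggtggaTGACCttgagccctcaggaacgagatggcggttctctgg
ATP5G1: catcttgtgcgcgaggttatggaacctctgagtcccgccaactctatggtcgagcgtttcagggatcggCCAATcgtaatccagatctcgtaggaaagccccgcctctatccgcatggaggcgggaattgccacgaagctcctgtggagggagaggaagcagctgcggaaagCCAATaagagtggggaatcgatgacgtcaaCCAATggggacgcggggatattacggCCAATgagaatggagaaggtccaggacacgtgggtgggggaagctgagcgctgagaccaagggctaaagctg

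NDUFB1 held 1 CCAAT box and 1 half-site, NDUFA11 none of the 5 short motifs, SDHD 1 NRF1 core, 1 ETS site and 1 half-site, and ATP5G1 4 CCAAT boxes. Windows of this length were at hand for 68 of the 87 genes, 82 windows in all because some genes have several starts. The NRF1 core was in 22 of these 82 windows (26.8%) and in 8.24% of all 35116 windows of the RefSeq table. The ETS site was likewise in 22 (26.8%), against 10.3% of all windows. CCAAT was in 32.9% against 34.6%, GGGCGG in 59.8% against 45.0%, and GGTCA in 54.9% against 37.4%. The full estrogen response element, GGTCA and TGACC 3 bases apart, was in 0 of the 82 and in 20 of all windows. These are matches of letters and no evidence of binding, and they were found without regard to whether a gene moved.

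Other genes of the pathway were described from fixed lists, 92 tested genes in all. In the untreated comparison limma called 17 of them as falls and 0 as rises, where 8.63% of all tested genes fell, and their median change was −0.13. Under quantile normalization, where 8.04% of all tested genes were called, the median was −0.03 and 3 fell (COQ5, FAM36A and PPARGC1A). COX19 and MDH2 rose, and the other 14 falls were lost. The falls named next are those of the deposited values. Of 12 tested further subunits and electron or metabolite carriers, 6 fell in the untreated knockout line, among them cytochrome c (CYCS, by 0.32), the phosphate carrier SLC25A3 (by 0.23), the ADP/ATP carrier SLC25A6 (by 0.36) and ETFA (by 0.30), which feeds electrons from fatty acid oxidation. None of these 6 was called under quantile normalization. Of 15 tested assembly factors of complex IV, 3 fell: COX20 (listed as FAM36A, by 0.56), the copper chaperone COX17 (by 0.38) and LRPPRC (by 0.63), which stabilizes mitochondrial mRNAs. None of the 9 tested complex I assembly factors and none of the 4 for complex III was called, and TMEM70 was the only 1 called of 6 for complexes V and II. In ubiquinone synthesis, 3 of 13 fell (COQ5, COQ2 and COQ7, by 0.41, 0.36 and 0.25), and in the tricarboxylic acid cycle 3 of 17 fell (PDHB, SUCLG2 and SUCLA2, by 0.37, 0.35 and 0.24). PPARGC1A, which encodes PGC-1alpha, fell by 0.33 and was the only 1 called of 16 tested regulators of mitochondrial biogenesis. It read 7.29, 7.18 and 7.25 in untreated parental and 6.89, 6.87 and 6.98 in untreated knockout cells, near the median of all values. On the 10 arrays, where 19.5% of all tested genes were called, TFB2M and MYC from this list were also called, both as rises.

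With estradiol, parental cells had 4 falls among the 92 genes, where 5.87% of all tested genes fell, and no rise with the deposited values. These were IDH2 of the tricarboxylic acid cycle (by 0.78), PPARGC1A (by 0.36), FAM36A (by 0.33) and COQ5 (by 0.32). COQ10A fell as well on the 10 arrays, where 10.7% of all tested genes were called. Under quantile normalization only the fall of IDH2 was kept, and IDH3A, MDH2, PDSS1 and PPRC1 rose, by 0.25 to 0.32 on the log2 scale. There 4.50% of all tested genes were called.

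In the knockout line 3 of the 92 genes rose with estradiol, where 1.18% of all tested genes rose: COX17 (by 0.37), PDHB (by 0.36) and IDH3A (by 0.34) on the log2 scale. IDH2 fell by 0.45. Without the 2 arrays that go against their labels, 10 rose, where 6.80% of all tested genes were called in either direction. They were these 3 with NDUFAF2, an assembly factor of complex I, and CHCHD8, CMC1, COX10, CYCS, DLAT and USMG5. IDH2 and TTC19 fell. Under quantile normalization 8 rose and the same 2 fell, where 5.44% of all tested genes were called. With the deposited values IDH2 was the only gene of these lists called in the same direction in both lines, and under quantile normalization IDH3A was called as a rise in both as well.

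With estradiol in both lines, limma called 0 of the 92 genes between knockout and parental arrays as labelled. The 10 arrays, where 9.79% of all tested genes were called, gave 6 genes that were higher in the knockout line. Among them were TFB2M (by 0.45), NDUFAF2 (by 0.41), CABC1 (by 0.34), CMC1 (by 0.31) and ATPIF1 (by 0.30), the inhibitor of the ATP synthase. The remaining gene was MYC. LRPPRC (−0.53) and FAM36A (−0.29) were lower, the direction each had between the untreated lines.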

How the data were processed

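Total RNA of 12 samples was hybridised to Illumina whole-genome arrays, per the labels' protocols. The deposited values are log2 expression values, 1 per gene symbol and array, with array medians from 6.78 to 6.86. Background correction, normalization and the combining of probes are not given in the sources used here. Values were used as deposited. Group means were fitted to the 19670 tested genes with limma 3.58.1 in R 4.3.3 (8 residual degrees of freedom, 6 with 10 arrays). P-values are two-sided, from empirical Bayes, adjusted over all genes tested. Precision is limited by the 3 arrays per group. Of the 87 symbols, 64 were current, 22 older and 1 (NDUFA4) unmatched; names are printed as deposited. Members and gene lists were chosen with earlier results of these data known. Named were up to 8 called genes per direction, the smallest p of each complex, complex II, isoform families, the chromosome 8 genes, non-subunits, and up to 4 called genes per other list and direction; other called genes were named after their values were seen. Alternatives were other filters, scalings, priors, weights, fits, thresholds and arrays left out. Levels of different genes were not compared with each other. Values of 1 tested gene are not reported here singly, though the counts and medians include it. Replicate numbers were not taken to pair arrays: of 18 same-numbered pairs, 6 had residuals correlating above 0.1. The correlations ran from −0.50 to 0.65, both ends between the 2 treated groups. Residuals were taken around the means of the groups as labelled, and each treated group holds an array whose MTDH level goes against its label.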

Additional observations from a re-analysis of the deposited data

How the results depend on the processing

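After quantile normalization, 6 of the 19 falls between untreated lines stayed called and 3 other genes rose, which made 9 calls. Calls between these lines numbered 32 with array weights, 34 on 10 arrays with median centring and 5 at a threshold of 0.01. With single arrays left out they numbered 5 to 23. The median over the 78 tested genes, −0.16, was −0.0323 after quantile normalization and −0.03325 with 10 arrays as well. With estradiol in both lines, the count of 0 was 2 on 10 arrays, 6 with quantile normalization and 3 with median centring of these, and the median ranged from −0.043 to 0.0433 with single arrays left out. In parental cells the 5 estradiol calls were 3 with a trended and robust prior, 1 at the threshold of 0.01 and 1 to 8 with single arrays left out, and the median over the 78 genes turned to 0.0366 after quantile normalization and 0.0381 with 10 arrays as well. In knockout cells the 6 calls were 12 on 10 arrays with quantile normalization, 17 with median centring of these, 2 at the threshold of 0.01 and 2 to 7 with single arrays left out. The interaction called 1 gene, ATP5J2, on 10 arrays with median centring, the median over the 78 genes was 0.0559 after quantile normalization and 0.057 with 10 arrays as well, and it ranged from 0.114 to 0.207 with single arrays left out. Shares of all tested genes called are given here only for the 12 arrays, the 10 arrays and quantile normalization of the 12. Under the other settings a change in count cannot be told apart from one over all tested genes. The cause of these changes was not tested.

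With the replicate number as a block, the counts were 21 between untreated lines, 0 with estradiol, 6 in parental cells, 6 in knockout cells and 0 for the interaction. The numbers do not pair the arrays by the labels, and 6 of 12 arrays correlated best with an array of their own number. Changes here are small, most under 1.5-fold, and with 3 arrays a group and no probe-level files signal over background could not be assessed for single genes.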

Other observations

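Genes next to those that moved were looked up in the GRCh38.p14 gene order. CPSF2, a neighbour of NDUFB1, changed by −0.27 ± 0.08 (SE, limma adjusted p = 0.0607) with estradiol in parental cells and by 0.03 ± 0.08 (adjusted p = 0.918) in knockout cells, where NDUFB1 rose. RANBP3, near NDUFA11, changed by −0.03 (adjusted p = 0.839) and 0.09 (adjusted p = 0.511) in the same comparisons. CAPS, another neighbour of NDUFA11, read 8.29, 8.19 and 8.24 in untreated parental, 9.14, 9.24 and 7.46 in treated parental, 7.17, 7.00 and 7.12 in untreated knockout and 9.12, 7.27 and 7.26 in treated knockout cells. Its value on each of the 2 arrays whose MTDH level goes against the label lay apart from the other arrays of that label. CAPS was not called as labelled, with changes of −1.14 ± 0.47 between the untreated lines (adjusted p = 0.136), 0.37 ± 0.47 with estradiol in parental (adjusted p = 0.732) and 0.79 ± 0.47 in knockout cells (adjusted p = 0.463). Without those 2 arrays the changes were −1.14 (adjusted p = 2.08e-09), 0.95 (adjusted p = 2.52e-07) and 0.17 (adjusted p = 0.223). CAPS and NDUFA11 had changes of the same sign in these comparisons, and CAPS was called on the 10 arrays in the first 2 of them. The interaction of CAPS was 0.41 ± 0.66 as labelled (limma adjusted p = 0.879) and −0.78 on the 10 arrays (adjusted p = 0.00342). For NDUFA11 it was 0.51 ± 0.13 as labelled, the same sign as that of CAPS. Its value on the 10 arrays is not given here, and a difference between the 2 genes was not tested. Whether the neighbours move together was not tested. The other values of neighbours are for the arrays as labelled. CALCOCO1, near ATP5G2, fell with estradiol in parental cells by 0.32 (adjusted p = 0.0112) and in knockout cells by 0.31 (adjusted p = 0.0197), while ATP5G2 was called only in parental cells. The difference of ATP5G2 between lines was not called (interaction 0.25 ± 0.11, adjusted p = 0.431).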
